A study of Mus musculus with 16 samples.

Results

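Neuropeptide and hormone precursor genes encode the proteins from which signalling peptides are cut. A list of 36 such genes was followed in the hippocampus of 2 mouse strains on 2 diets. A gene was measured through every non-control array probe whose RefSeq transcript belongs to it. Of the 36 genes, 31 had a probe (35 probes in all), and 27 were bright enough to be tested, out of 13455 named genes tested on the arrays. Pdyn, Tac2, Crh, Nms and Vgf were matched to no probe and were not analysed here. Gh, Prl, Agrp and Nmu had a probe but were too dim for the tests. The list was sorted into 5 roles: peptides that textbook neuroanatomy places in hippocampal interneurons, peptides of other brain neurons, hypothalamic peptides, pituitary hormones, and granins.

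A neuropeptide is made as a long precursor, sorted into dense-core vesicles, cut by prohormone convertases, trimmed by carboxypeptidases and often amidated before it is released and binds a G-protein-coupled receptor. In the hippocampus most peptide genes known from textbooks mark classes of GABA-releasing interneurons, such as the somatostatin cells and the cholecystokinin cells, and a few, such as Penk, are also used by principal neurons after activity. Other precursors on the list belong to cells outside the hippocampus: vasopressin, oxytocin, orexin and melanin-concentrating hormone neurons sit in the hypothalamus, enkephalin and substance P are abundant in the projection neurons of the striatum, and growth hormone, prolactin and luteinizing hormone come from the anterior pituitary.

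The mice were males of the strains SAM/P-8 and SAM/R-1, the senescence-prone and senescence-resistant lines of the senescence-accelerated mouse, whose background strain is given as AKR/J. All started at 8 weeks of age and were fed for 8 weeks on CE-2 rodent diet alone (control) or on CE-2 with 0.1% CCH, coral calcium hydride. The resulting 4 groups (SAM/P-8 control, SAM/P-8 CCH, SAM/R-1 control, SAM/R-1 CCH) each had 4 one-colour arrays of hippocampal RNA. The labels number the replicates without saying that each is a separate animal, so p-values measure the spread between these samples. The 4 arrays of a group shared 1 slide and no slide held a second group, so the slide and the group cannot be told apart throughout.

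Levels are given as log2 of the processed signal minus the 75th percentile of the array, so 0 is the 75th percentile and a step of 1 is a doubling. They compare arrays for 1 probe, not probes with each other. A strain difference is SAM/P-8 minus SAM/R-1, a CCH effect is CCH minus control, both with the standard error (SE) of the limma fit, and a gene was called when its p-value, adjusted by Benjamini-Hochberg over 29003 probes, was under 0.05. The count of spots well above background ran from 28920 to 33333 of 43379 per array. Precision is limited by the number of arrays. Because whole tissue was measured, fewer cells of a type and less RNA per cell cannot be told apart. All 11 hippocampal markers with a probe, such as the dentate gyrus factor Prox1 and the CA1 gene Wfs1, were well above background on all 16 arrays.

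One array stood apart from the rest in its striatal markers. In SAM/P-8 CCH replicate 4 all 12 striatal markers tested were higher than in the other arrays of its group, 11 of them by 1 or more on the log2 scale. Their score there, the mean over genes after centring each gene over the 16 arrays, was 3.29, while the other 15 arrays lay between -0.60 and 0.11. Of 11 hippocampal markers 10 were lower in that array than in the others of its group. Beside results on the SAM/P-8 CCH group the value without this array is given where leaving it out ended a call, turned a sign or moved the value by over 1.5 times, and for the medians of the precursor genes. Choroid plexus scores varied widely as well, from -2.82 to 1.66 on the other 15 arrays.

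Neuropeptide precursors are a textbook class of genes with cyclic AMP response elements (CRE) next to the start. Promoter sequence is shown for 4 genes that hold a motif searched for, as examples and not as a sample of the list. RefSeq promoters (build GRCm38.p6, from 250 bases before to 50 after the start) matched 28 of the 36 genes, and Grp, Vgf, Npb, Gh, Penk, Crh, Pnoc and Agrp had no entry. The full CRE, TGACGTCA, which reads the same on both strands, stood in 4 of the 28 (Sst, Scg2, Chgb and Cartpt), against 2.03% of all 27025 genes with a promoter. The shorter CRE core TGACG, searched on both strands and contained in the full CRE, stood in 16 of 28 against 23.05% of all genes. The TATA box letters TATAAA, searched on the sense strand, stood in 10 of 28 (Adcyap1, Chga, Hcrt, Lhb, Nppa, Nppc, Pmch, Pomc, Prl and Vip) against 9.77%. A match is a description of the letters and says nothing of a factor's binding. The 120 bases before the start follow for Sst (chr16:23890845-23890964, minus strand), Scg2 (chr1:79440027-79440146, minus), Chga (chr12:102554821-102554940, plus) and Pomc (chr12:3954825-3954944, plus), with capitals on the full CRE in Sst and Scg2, on the CRE core in Chga and on the TATA letters in Pomc.
Sst: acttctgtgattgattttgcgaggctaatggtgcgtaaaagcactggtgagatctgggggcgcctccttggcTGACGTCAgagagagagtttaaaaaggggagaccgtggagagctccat
Scg2: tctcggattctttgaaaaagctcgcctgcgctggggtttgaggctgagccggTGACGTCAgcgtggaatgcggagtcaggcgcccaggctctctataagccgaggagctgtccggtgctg
Chga: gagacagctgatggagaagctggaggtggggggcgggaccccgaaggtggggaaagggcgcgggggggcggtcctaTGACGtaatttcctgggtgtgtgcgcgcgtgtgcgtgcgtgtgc
Pomc: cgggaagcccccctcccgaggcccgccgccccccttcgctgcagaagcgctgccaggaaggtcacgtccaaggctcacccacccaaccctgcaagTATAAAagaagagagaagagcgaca
The first base of the full CRE lay at -48 in Sst, -68 in Scg2, -72 in Chgb and -112 in Cartpt, counted from the start. The CRE core of Chga began at -44 and the TATA letters of Pomc at -25. The granins Scg2 and Chga, which both hold the TGACG letters, differed between the strains in opposite directions on the CCH diet, as described below.

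Across the 27 tested genes, 6 were called in at least 1 of 6 contrasts: Pomc, Npb, Lhb, Scg2, Chga and Nmb. The strain difference on the control diet called 3 of 27 (Npb higher in SAM/P-8, Pomc and Lhb lower), where 12.9% of all genes were called, 6.15% higher and 6.73% lower. The strain difference on the CCH diet called 3 of 27 (Scg2 higher, Pomc and Chga lower), again against 12.9%, with 6.14% of all genes higher and 6.79% lower. Both counts are near the background share and are no result about the list as a whole. The CCH effect in SAM/P-8 called 1 of 27 (Npb, lower with CCH) against 0.825% of all genes, 0.438% of them called lower. In SAM/R-1 limma called 0 of 27 against 0.111%, with 3 genes (Lhb, Nmb and Nppa, all lower) at an unadjusted p under 0.05. The CCH effect averaged over the strains called 2 of 27 (Nmb and Npb, both lower) against 4.47%, or 2.89% called lower. The strain by diet interaction called 0 of 27 by limma against 0.126% (0.0149% lower), with only Npb at an unadjusted p under 0.05 and below 0. The share of all genes at an unadjusted p under 0.05 is not given here. Counts at that threshold are therefore no result about the list. Without SAM/P-8 CCH replicate 4 the strain differences called 6 of 27 on the control diet against 14.8% of all genes and 3 of 27 on the CCH diet against 10.6%. The CCH effect in SAM/P-8 then called 0 of 27 by limma against 0.282%, and the averaged effect 1 of 27 (Nmb) against 3.38%.

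The median strain difference of the 27 genes on the control diet was -0.22, with 21 of 27 below 0, against a median of -0.01 over all genes. On the CCH diet the median was -0.11 with 17 of 27 below 0, against -0.02 over all genes, and without SAM/P-8 CCH replicate 4 it was -0.13 with 20 of 27 below 0. The spread between arrays of a group was wider for these genes than for most: the median within-group SD was 0.23, or 0.21 without SAM/P-8 CCH replicate 4, against 0.11 and 0.10 over all genes. For 9 of the 27 genes at least 1 array lay 1 or more from the mean of the other 3 of its group.

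**Figure D1:**
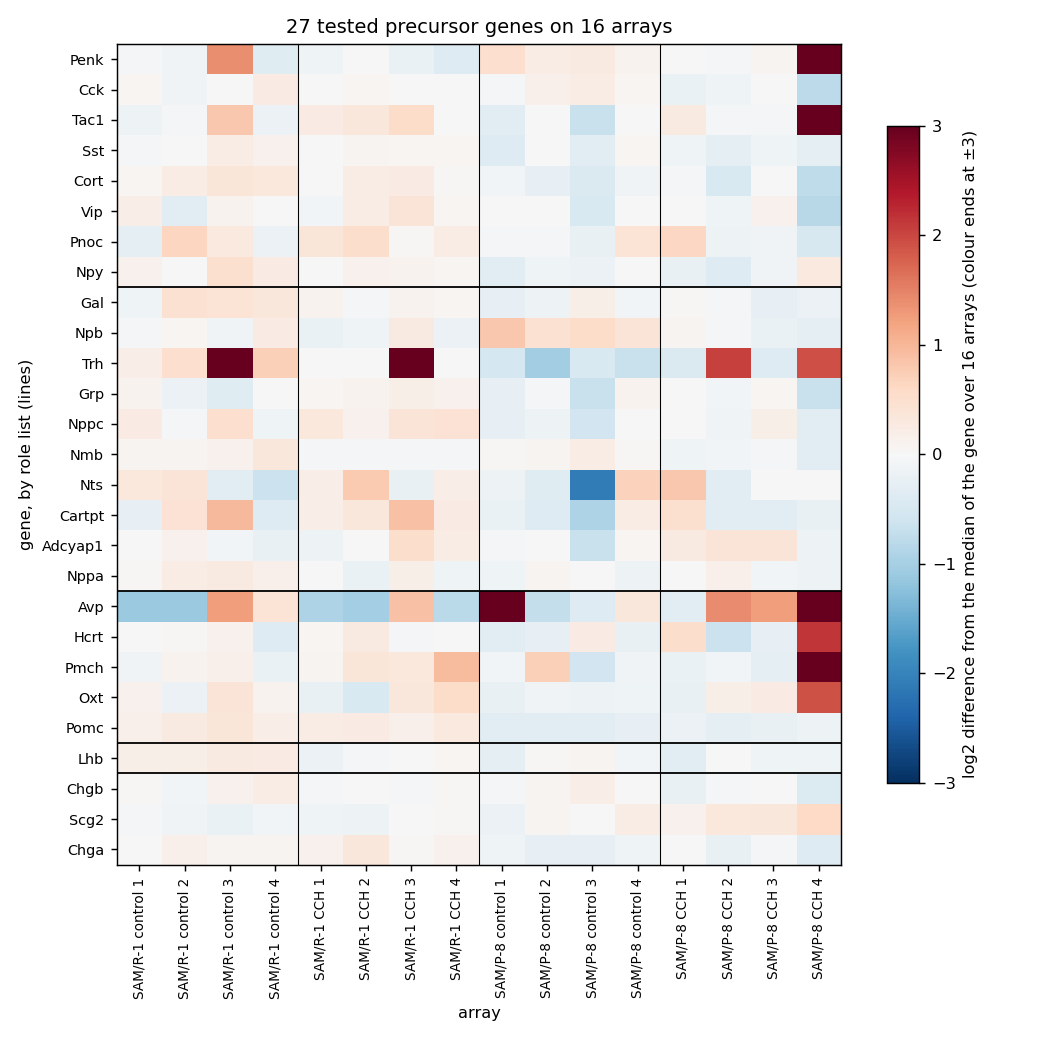
Levels of the 27 tested precursor genes (rows, in the order of the role lists, separated by lines) on the 16 arrays (columns), as the log2 difference from the median of the gene over all arrays. Pomc is lower on all 8 SAM/P-8 arrays, while Penk, Tac1, Avp, Hcrt, Pmch and Oxt are far higher on SAM/P-8 CCH replicate 4 than on the rest.

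Of the 10 interneuron peptides 8 were tested, and with all 16 arrays 0 were called by limma in any contrast. Over all genes 0.111% to 12.9% were called, depending on the contrast. On the control diet 6 of the 8 were below 0 in SAM/P-8, with a median of -0.17, and on the CCH diet 6 of 8 with a median of -0.27, or 7 of 8 with a median of -0.20 without SAM/P-8 CCH replicate 4. At an unadjusted p under 0.05 Npy, Sst and Cort were lower in SAM/P-8 on the control diet, and Sst, Cort and Cck on the CCH diet. The share of all genes at that threshold is not given here, and 12.9% were called even after adjustment on each diet. These counts are therefore no result about the role. The size of the differences on the CCH diet moved with SAM/P-8 CCH replicate 4: without it Cck went from -0.29 ± 0.13 to -0.12 ± 0.08 (limma adjusted p = 0.401), Cort from -0.43 ± 0.15 to -0.28 ± 0.13 (limma adjusted p = 0.175) and Sst from -0.26 ± 0.10 to -0.23 ± 0.10 (limma adjusted p = 0.178). The 21 interneuron markers that are not peptides, such as Gad1, Gad2 and Pvalb, had 0 calls by limma in all 6 contrasts, with a median strain difference of 0.03 on the control diet. Without that array 1 of the 21 was called, lower in SAM/P-8 on the control diet, against 14.8% of all genes called in either direction.

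Neuropeptide Y, made by several interneuron classes, had Npy levels of 0.14, 0.36, 0.31 and 0.48 on the SAM/P-8 control arrays (replicates 1 to 4) and 0.61, 0.49, 0.97 and 0.73 on the SAM/R-1 control arrays. These groups did not overlap, the closest pair being 0.48 and 0.49. The difference was -0.38 ± 0.13 (SE, n = 4 and 4; limma adjusted p = 0.0676). Cort, the precursor of the somatostatin relative cortistatin, stood at -2.45, -2.63, -2.82 and -2.47 in SAM/P-8 control and at -2.31, -2.15, -2.01 and -2.06 in SAM/R-1 control. These did not overlap either, with a difference of -0.46 ± 0.15 (limma adjusted p = 0.0558). Both passed the threshold without SAM/P-8 CCH replicate 4, an array that is in neither group but enters the common estimate of spread. The differences were then -0.38 ± 0.10 (limma adjusted p = 0.0202) for Npy and -0.46 ± 0.12 (limma adjusted p = 0.0159) for Cort. Cort also passed without SAM/P-8 CCH replicate 1 or 3, and Npy without SAM/R-1 control replicate 2.

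Somatostatin, the peptide of dendrite-targeting interneurons, had Sst levels from 3.1 to 3.55 in SAM/P-8 control and from 3.44 to 3.70 in SAM/R-1 control, which overlapped. On the CCH diet the SAM/P-8 arrays (3.18 to 3.36) all lay below the SAM/R-1 arrays (3.48 to 3.55). The differences were -0.23 ± 0.10 (limma adjusted p = 0.123) and -0.26 ± 0.10 (limma adjusted p = 0.086). The sign was the same on both diets while neither passed with all arrays. On the control diet Sst passed without SAM/P-8 control replicate 4. Cck, which marks a class of basket cells and is also made by pyramidal cells, ranged from 4.94 to 5.96 over the 16 arrays and was lowest on SAM/P-8 CCH replicate 4. The next lowest was 5.50. Vip, made by interneurons that inhibit other interneurons, was likewise lowest on that array at -1.16, while the other 15 lay between -0.78 and 0.08. Pnoc, the precursor of nociceptin, ranged from -0.49 to 0.64 with overlapping groups.

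Penk and Tac1 behaved differently from the other interneuron peptides, with single arrays far above the rest. Penk, the precursor of the enkephalins, stood at 2.72, 2.68, 2.81 and 7.14 in SAM/P-8 CCH, 3.24, 2.95, 3.00 and 2.84 in SAM/P-8 control, 2.60, 2.75, 2.55 and 2.36 in SAM/R-1 CCH, and 2.71, 2.64, 4.13 and 2.38 in SAM/R-1 control. SAM/P-8 CCH replicate 4 was 21.2-fold above the mean of the others of its group and SAM/R-1 control replicate 3 was 2.94-fold above. The second Penk probe was 25.3-fold above on the first of these arrays. With those arrays set aside, the 4 SAM/P-8 control arrays (2.84 to 3.24) lay above all the others, which ran from 2.36 to 2.81 with overlapping groups. On the second probe SAM/P-8 control overlapped with SAM/R-1 CCH.

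Tac1, the precursor of substance P and neurokinin A, stood at -1.05, -1.38, -1.38 and 2.93 in SAM/P-8 CCH, -1.65, -1.31, -2.0 and -1.32 in SAM/P-8 control, -1.06, -0.97, -0.75 and -1.30 in SAM/R-1 CCH, and -1.48, -1.38, -0.51 and -1.49 in SAM/R-1 control. SAM/P-8 CCH replicate 4 was 18.4-fold above the others of its group. The same arrays were high for Tac1 as for Penk, with SAM/R-1 control replicate 3 at 0.94 above its group. For Penk the CCH effect in SAM/P-8 amounted to 0.84 ± 0.76 (limma adjusted p = 0.574) and fell to -0.27 ± 0.30 without replicate 4, turning its sign. For Tac1 it was 1.35 ± 0.71 (limma adjusted p = 0.311) and 0.30 ± 0.23 without it.

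Of the 12 peptides of other brain neurons 10 were tested, and 2 of them, Npb and Nmb, were called. Npb was the 1 of 10 called for the strain difference on the control diet, against 12.9% of all genes. It was also the 1 of 10 called for CCH in SAM/P-8, against 0.825%. The averaged CCH effect called 2 of 10, Npb and Nmb, against 4.47%. These small counts are no result about the role. Npb, the precursor of neuropeptide B, a ligand of the receptor NPBWR1, was highest in SAM/P-8 on the control diet. Its levels were -2.65, -3.02, -2.92 and -3.08 in SAM/P-8 control, -3.38, -3.52, -3.65 and -3.77 in SAM/P-8 CCH, -3.53, -3.41, -3.57 and -3.21 in SAM/R-1 control, and -3.66, -3.60, -3.20 and -3.64 in SAM/R-1 CCH. All 4 SAM/P-8 control arrays lay above all 12 others. On the control diet Npb was 1.43-fold higher in SAM/P-8 (0.51 ± 0.12; limma adjusted p = 0.0121), and on the CCH diet the difference was -0.05 ± 0.12, or 0.01 ± 0.13 without SAM/P-8 CCH replicate 4.

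With CCH the Npb level in SAM/P-8 was 1.58-fold lower (-0.66 ± 0.12, n = 4 and 4; limma adjusted p = 0.0282), and in SAM/R-1 the effect was -0.10 ± 0.12. The difference between those effects was -0.57 ± 0.18 and did not pass (limma adjusted p = 0.575), so the CCH effect is not shown to differ between the strains. The Npb calls for the strain difference, for CCH in SAM/P-8 and for the averaged CCH effect share the 4 SAM/P-8 control arrays. These calls are therefore not independent. The call in SAM/P-8 was lost without any 1 of 4 arrays: SAM/P-8 CCH replicate 3 (adjusted p = 0.0648) or replicate 4 (0.0697), or SAM/P-8 control replicate 2 (0.0632) or replicate 3 (0.0793), all by limma with differences from -0.70 to -0.60. It was also lost with 3 of 9 other settings, among them another background correction (normexp; -0.30) and a fit of only the groups compared (-0.66; limma adjusted p = 0.137). The strain difference was lost with 1 of the 9, normexp, at 0.29. Over all 25 alternatives the adjusted p for CCH in SAM/P-8 ran from 0.021 to 0.782, and for the strain difference from 0.00534 to 0.812.

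Nmb, the precursor of neuromedin B, a bombesin-like peptide, was lower with CCH when the strains were averaged. It stood at 1.02, 1.07, 1.09 and 0.80 in SAM/P-8 CCH against 1.18, 1.22, 1.37 and 1.19 in SAM/P-8 control, and at 1.12, 1.10, 1.10 and 1.11 in SAM/R-1 CCH against 1.24, 1.22, 1.28 and 1.49 in SAM/R-1 control. In each strain the 4 CCH arrays lay below the 4 control arrays. The averaged CCH effect was -0.22 ± 0.05, a 1.17-fold decrease (limma adjusted p = 0.0316), and that of Npb was -0.38 ± 0.09 (limma adjusted p = 0.0321). Within the strains the Nmb effects were -0.24 ± 0.07 and -0.20 ± 0.07 and neither was called. The averaged calls were fragile: leaving out 1 array ended that of Nmb for 8 of 16 arrays and that of Npb for 9 of 16, and over all 16 such fits the differences ran from -0.24 to -0.19 and from -0.43 to -0.34, with limma adjusted p up to 0.065 and 0.0663. Of 8 other settings 3 ended the call of Nmb and 2 that of Npb, normexp among them for both (-0.25 and -0.07). The arrays were SAM/P-8 CCH replicate 1, SAM/P-8 control replicates 2 and 3, SAM/R-1 CCH replicates 1, 3 and 4 and SAM/R-1 control replicates 3 and 4 for Nmb. For Npb they were SAM/P-8 CCH replicates 3 and 4, SAM/P-8 control replicates 2 and 3, SAM/R-1 CCH replicates 1 and 4 and SAM/R-1 control replicates 2, 3 and 4.

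**Figure D2:**
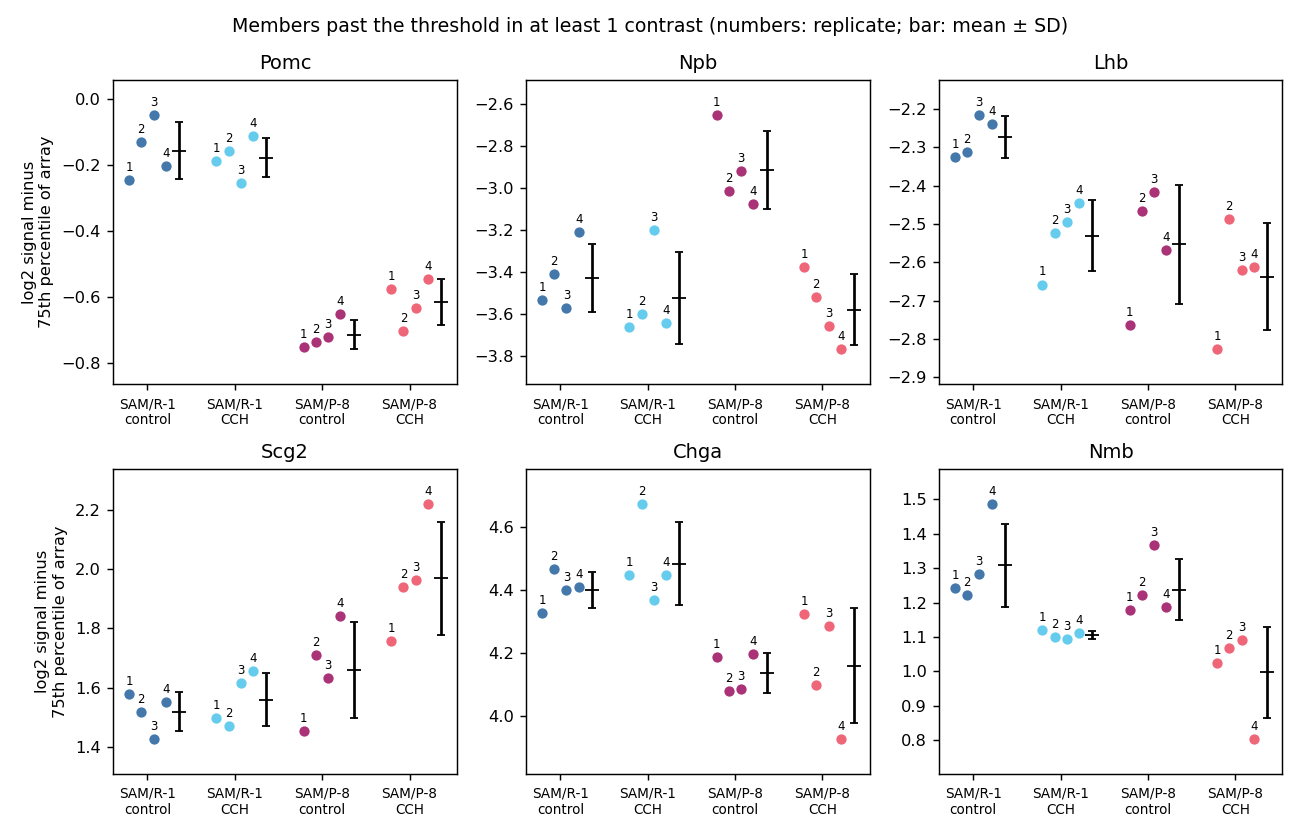
Level on each array (log2 of the signal minus the 75th percentile of the array, numbered by replicate) and mean ± SD (n = 4) of the 6 precursor genes called in at least 1 contrast, by group; each panel has its own scale. Pomc separates the strains on both diets, Npb is high in SAM/P-8 control only, and Nmb is lower in both CCH groups than in the control group of the same strain.

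Trh, the precursor of thyrotropin-releasing hormone, was the only tested gene not well above background on all 16 arrays. It was well above background on 0 of 4 SAM/P-8 control arrays, 2 of 4 SAM/P-8 CCH arrays and all 8 SAM/R-1 arrays, so it entered the tests through SAM/R-1. Its levels were -5.68, -5.37, -1.16 and -5.16 in SAM/R-1 control, -5.89, -5.86, -2.85 and -5.90 in SAM/R-1 CCH, then -6.31, -3.82, -6.25 and -3.95 in SAM/P-8 CCH, and -6.39, -6.92, -6.32 and -6.54, all below the background limit, in SAM/P-8 control. Single arrays were again high: replicate 3 of SAM/R-1 control was 19.0-fold and replicate 3 of SAM/R-1 CCH 8.21-fold above the others of the group. Set against the dimmest signal that still counted as well above background in SAM/P-8 control, Trh was at least 2.47-fold higher in SAM/R-1 control, and at least 1.18-fold without replicate 3 (limma adjusted p = 0.152 with all arrays).

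Nts, the precursor of neurotensin, and Cartpt, that of the CART peptides, also had single arrays apart. Nts stood at -0.34, -0.54, -2.29 and 0.50 in SAM/P-8 control, 0.64, -0.50, -0.16 and -0.20 in SAM/P-8 CCH, 0.13, 0.22, -0.49 and -0.81 in SAM/R-1 control, and 0.02, 0.60, -0.41 and 0.01 in SAM/R-1 CCH. SAM/P-8 control replicate 3 was 4.47-fold below the others of its group, and the groups overlapped. Cartpt stood at -1.06, -1.88, -1.85 and -1.76 in SAM/P-8 CCH, -1.74, -1.93, -2.46 and -1.32 in SAM/P-8 control, -1.34, -1.20, -0.67 and -1.29 in SAM/R-1 CCH, and -1.78, -1.10, -0.57 and -1.92 in SAM/R-1 control. Its highest array was SAM/R-1 control replicate 3, 2.04-fold above its group and one of the arrays that were high for Penk and Trh. The strain differences of Cartpt, -0.52 ± 0.30 and -0.51 ± 0.30, were not called.

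The other 5 peptides of this role were steadier. Gal (galanin), Nppa and Nppc (natriuretic peptides), Grp (gastrin-releasing peptide) and Adcyap1 (PACAP) were called in no contrast by limma with all arrays. Gal, Nppa and Nppc were lower in SAM/P-8 control at an unadjusted p under 0.05, a threshold whose share over all genes is not given here. This difference of Gal passed the threshold without SAM/P-8 control replicate 3 or SAM/R-1 control replicate 1. Gal ranged from -1.41 to -0.70 over the 16 arrays and Nppc from -4.24 to -3.17. Adcyap1 was 0.39 ± 0.18 higher with CCH in SAM/P-8, which did not pass (limma adjusted p = 0.241), and 0.52 ± 0.17 without SAM/P-8 CCH replicate 4 (limma adjusted p = 0.178).

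Of the 7 hypothalamic precursors 5 were tested, and they fell into 2 kinds. Pomc, the precursor of ACTH, melanocortins and beta-endorphin, was the steadiest gene of all 27 within groups, with an SD of 0.07. It was lower on every SAM/P-8 array than on every SAM/R-1 array. The levels were -0.75, -0.74, -0.72 and -0.65 in SAM/P-8 control, -0.58, -0.70, -0.63 and -0.55 in SAM/P-8 CCH, -0.24, -0.13, -0.05 and -0.20 in SAM/R-1 control, and -0.19, -0.16, -0.25 and -0.11 in SAM/R-1 CCH. Pomc was 1.47-fold lower in SAM/P-8 on the control diet (-0.56 ± 0.05; limma adjusted p = 3.67e-06) and 1.35-fold lower on the CCH diet (-0.44 ± 0.05; limma adjusted p = 5.13e-05). It was called under all 25 alternatives on each diet, with differences from -0.59 to -0.52 and from -0.48 to -0.40. CCH effects on Pomc, 0.10 ± 0.05 and -0.02 ± 0.05, were not called. On SAM/P-8 CCH replicate 4 Pomc was within 0.09 of the mean of its group.

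Avp, Pmch, Hcrt and Oxt were the other kind, with low levels on most arrays and a high level on single arrays. Avp, the vasopressin precursor, stood at -4.43, -2.68, -2.84 and 1.85 in SAM/P-8 CCH, -0.86, -4.81, -4.49 and -3.75 in SAM/P-8 control, -5.01, -5.11, -3.22 and -4.90 in SAM/R-1 CCH, and -5.20, -5.21, -2.84 and -3.68 in SAM/R-1 control. It was 35.8-fold above its group on SAM/P-8 CCH replicate 4 and 11.3-fold above on SAM/P-8 control replicate 1. Replicate 3 was the highest Avp array in both SAM/R-1 groups, as it was for Trh. Avp had the widest spread of the 27 genes, with a within-group SD of 1.78, or 1.29 without SAM/P-8 CCH replicate 4.

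Pmch, the precursor of melanin-concentrating hormone, stood at -3.63, -3.51, -3.73 and 1.58 in SAM/P-8 CCH, -3.53, -2.72, -4.0 and -3.54 in SAM/P-8 control, -3.36, -3.06, -3.13 and -2.49 in SAM/R-1 CCH, and -3.54, -3.34, -3.29 and -3.64 in SAM/R-1 control. SAM/P-8 CCH replicate 4 was 36.9-fold above the others of its group, the largest such distance of the 27 genes. The other 15 arrays lay between -4.0 and -2.49. Among them the 3 SAM/P-8 CCH arrays (-3.73 to -3.51) lay below the 4 SAM/R-1 CCH arrays (-3.36 to -2.49), and the strain difference on the CCH diet went from 0.69 ± 0.87 (limma adjusted p = 0.644) to -0.61 ± 0.25 (limma adjusted p = 0.134), turning its sign.

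Hcrt, the orexin precursor, stood at -4.42, -5.59, -5.18 and -2.80 in SAM/P-8 CCH, -5.29, -5.19, -4.70 and -5.17 in SAM/P-8 control, -4.88, -4.68, -4.98 and -4.96 in SAM/R-1 CCH, and -4.93, -4.91, -4.80 and -5.33 in SAM/R-1 control. Oxt, the oxytocin precursor, stood at -4.56, -4.17, -4.10 and -2.44, then -4.57, -4.45, -4.49 and -4.47, then -4.58, -4.80, -4.0 and -3.79, then -4.21, -4.52, -3.97 and -4.24 in the same order of groups. SAM/P-8 CCH replicate 4 was the highest of the 16 arrays for both, 4.82-fold above its group for Hcrt and 3.58-fold for Oxt.

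**Figure D3:**
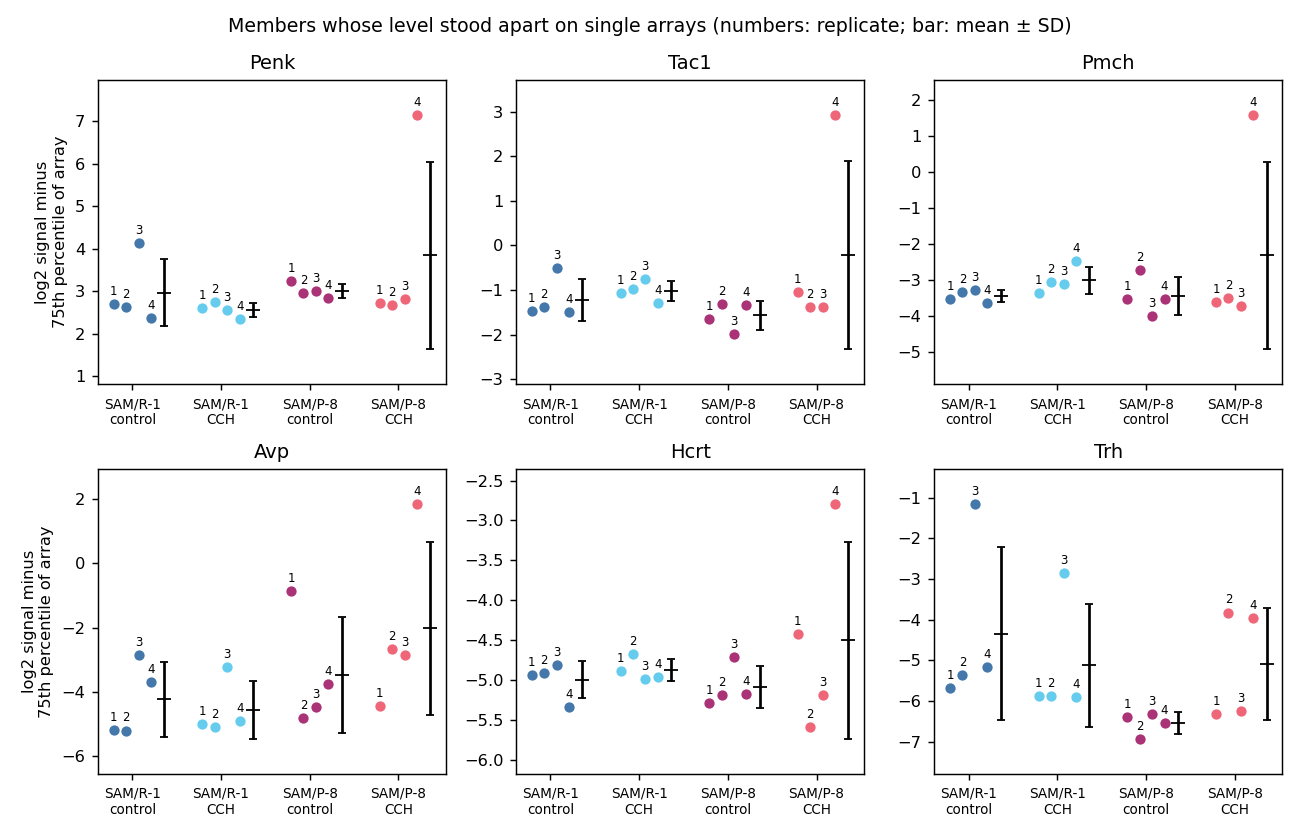
Level on each array (log2 of the signal minus the 75th percentile of the array, numbered by replicate) and mean ± SD (n = 4) of 6 precursor genes with single arrays far from their group; each panel has its own scale. SAM/P-8 CCH replicate 4 is the highest array for Penk (7.14), Tac1 (2.93), Pmch (1.58), Avp (1.85) and Hcrt (-2.80), while Trh is highest on SAM/R-1 control replicate 3 (-1.16).

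All 5 hypothalamic genes had a CCH effect above 0 in SAM/P-8 with a median of 0.68. Of these, 0 were called by limma, against 0.825% of all genes, nor were any at an unadjusted p under 0.05. Without replicate 4 of SAM/P-8 CCH the median was 0.08. The effect went from 1.45 ± 1.16 to 0.16 ± 0.89 for Avp, from 1.13 ± 0.87 to -0.17 ± 0.25 for Pmch, from 0.68 ± 0.35 to 0.22 ± 0.21 for Oxt and from 0.59 ± 0.42 to 0.02 ± 0.22 for Hcrt. That array decides the size of all 4 values and the sign for Pmch.

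**Figure D4:**
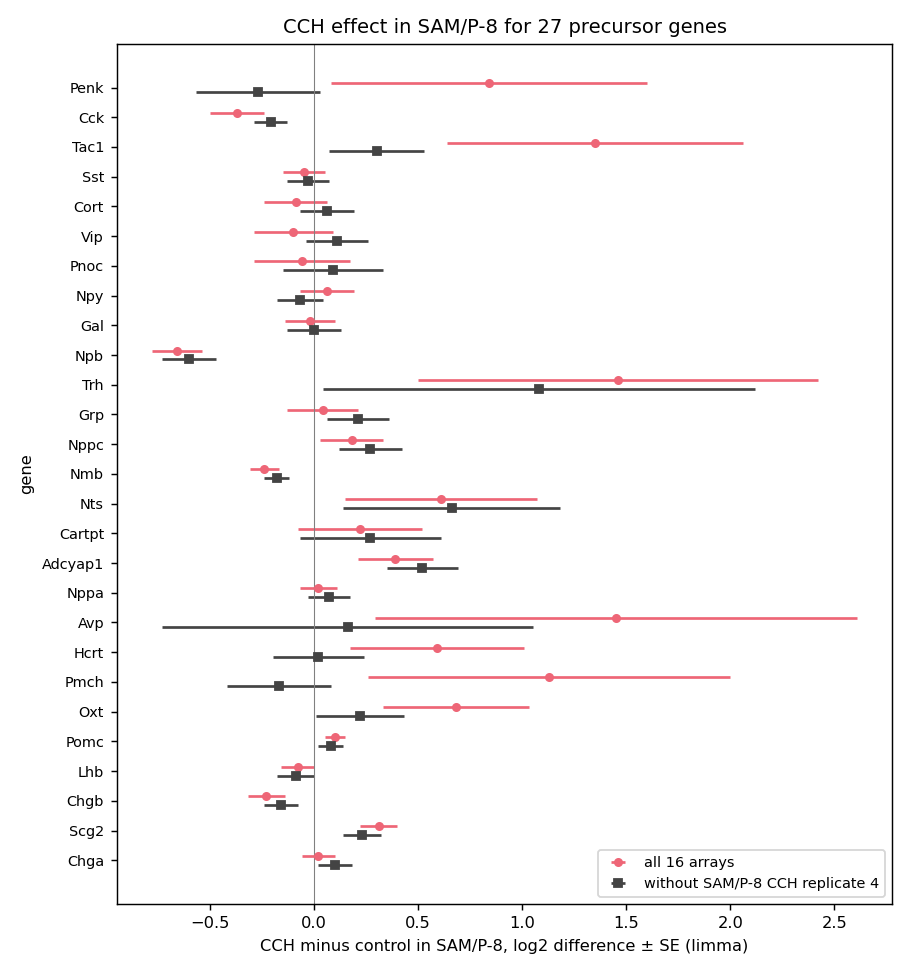
CCH effect in SAM/P-8 (CCH minus control, log2, point ± SE of the limma fit) of the 27 tested genes, with all 16 arrays (circles) and without SAM/P-8 CCH replicate 4 (squares). The effects of Penk, Tac1, Avp, Hcrt, Pmch and Oxt move towards 0 or across it without that array, while that of Npb moves from -0.66 to -0.60.

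Markers of the neighbouring regions were read on the same arrays. Among the striatal genes above their group on SAM/P-8 CCH replicate 4 were the signalling regulator Rgs9 (5.36 above the mean of the other 3 arrays on the log2 scale) and the dopamine receptor Drd2 (4.59), and Drd1 was 4.31 above. Penk and Tac1, the textbook peptides of the Drd2 and Drd1 striatal neurons, were 4.41 and 4.20 above on that array. Of 5 hypothalamic markers tested 0 were 1 or more above the others there, and their score was -0.16, within the range of -0.40 to 0.29 on the other 15 arrays. These markers were Nr5a1, Ghrh, Gnrh1, Kiss1 and Esr1, all dim there, from -6.3 to -4.01. Between the strains limma called 1 of the 5, Ghrh, lower in SAM/P-8 on the control diet, against 6.73% of all genes. The difference of Ghrh was -0.77 ± 0.14 there (limma adjusted p = 0.00205) and -0.12 ± 0.14 on the CCH diet, not called. Kiss1 was well above background on only 5 of 16 arrays, and the hypothalamic factors Otp, Sim1 and Six6 on no array. A score of 5 dim genes can miss hypothalamic tissue. The hippocampal score on SAM/P-8 CCH replicate 4 was -0.37, the lowest of 16. The neocortical score there was -0.42, below the range of -0.32 to 0.30 on the other 15 arrays. Of 11 hippocampal markers 1, Spink8, was called higher in SAM/P-8 on each diet (1.78 ± 0.15 and 1.67 ± 0.15), against 6.15% and 6.14% of all genes. Of 9 neocortical markers 1, Rorb, was called lower in SAM/P-8 on the control diet (-0.56 ± 0.14), against 6.73%. Other arrays with high peptides lacked a high striatal score: it was 0.08 on SAM/R-1 control replicate 3 and -0.56 on SAM/P-8 control replicate 1. Of 10 meningeal markers 9 were higher in SAM/P-8 on each diet, with median strain differences of 0.66 (control) and 0.78 (CCH). Limma called 1 and 2 of the 10 higher (1 and 1 without SAM/P-8 CCH replicate 4), against 6.15% and 6.14% of all genes. All 8 choroid plexus markers were lower with CCH in both strains, with 0 called by limma, against 0.825% of all genes in SAM/P-8 and 0.111% in SAM/R-1. Their medians were -0.46 in SAM/P-8 (-0.71 without that array) and -0.81 in SAM/R-1. The 8 genes moved together on single arrays, so they are not separate results. In SAM/P-8 all 8 lay 1 or more below the others of their group on CCH replicate 3 and control replicate 4. In SAM/R-1 the same held for CCH replicates 2 and 3 and control replicate 4. The part of tissue composition in these single-array levels and group differences was not tested.

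**Figure D5:**
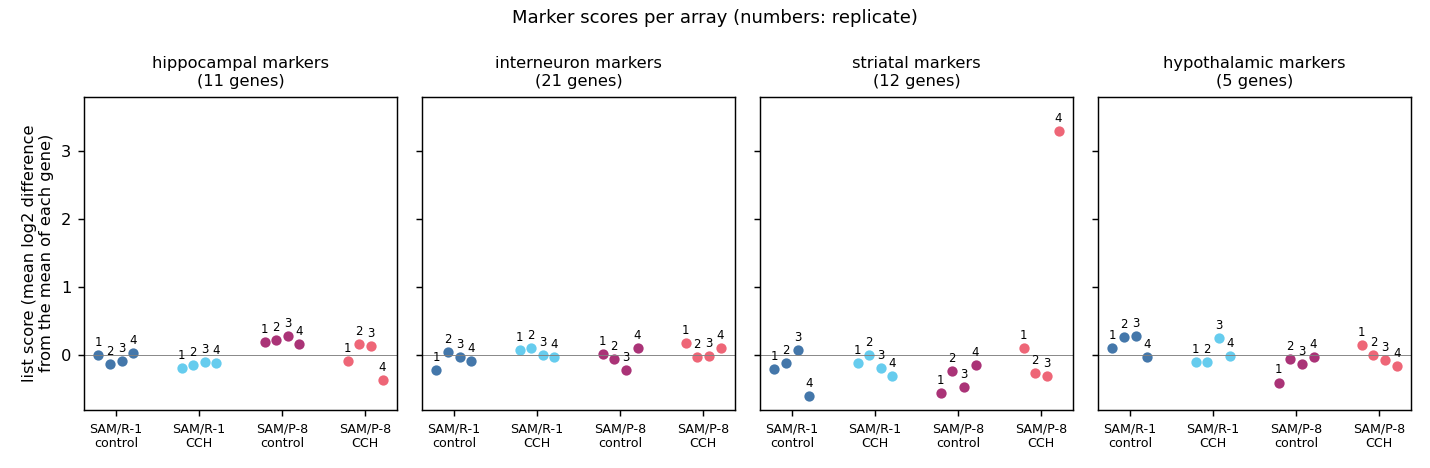
Score of 4 marker lists on each array (mean over the genes of the log2 difference from the mean of the gene, numbered by replicate), by group. The striatal score is 3.29 on SAM/P-8 CCH replicate 4 and between -0.60 and 0.11 on the other 15 arrays, while the interneuron and hypothalamic scores of that array lie among the others.

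Of the 3 pituitary hormones only Lhb, the beta subunit of luteinizing hormone, was tested. It stood at -2.76, -2.46, -2.42 and -2.57 in SAM/P-8 control, -2.33, -2.31, -2.22 and -2.24 in SAM/R-1 control, -2.83, -2.49, -2.62 and -2.61 in SAM/P-8 CCH, and -2.66, -2.52, -2.49 and -2.44 in SAM/R-1 CCH. The SAM/R-1 control arrays lay above all 12 others. On the control diet Lhb was 1.21-fold lower in SAM/P-8 (-0.28 ± 0.08; limma adjusted p = 0.0347), and on the CCH diet the difference was -0.11 ± 0.08. The call did not last with other choices: it was lost without SAM/P-8 control replicate 1 or 4 or without any SAM/R-1 control array, with differences from -0.30 to -0.21 and limma adjusted p from 0.0510 to 0.0959, and with 5 of 9 other settings, among them normexp (-0.21). Over all 25 alternatives its adjusted p ran from 0.00844 to 0.89.

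Gh was well above background on 2 of 16 arrays (SAM/P-8 CCH and SAM/R-1 CCH, 1 each) and Prl on 9 of 16. Of 10 pituitary markers with a probe, Ghrhr, Gnrhr, Lhx3, Tbx19 and Tshb were well above background on no array. Agrp, a hypothalamic feeding peptide, and Nmu, neuromedin U, were well above background on no array.

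Granins are acidic proteins packed with peptides into dense-core vesicles, and some are themselves cut into peptides. Scg2 and Chga differed between the strains in opposite directions. Scg2, secretogranin II, stood at 1.76, 1.94, 1.96 and 2.22 in SAM/P-8 CCH, 1.5, 1.47, 1.61 and 1.66 in SAM/R-1 CCH, then 1.45, 1.71, 1.63 and 1.84 in SAM/P-8 control, and 1.58, 1.52, 1.43 and 1.55 in SAM/R-1 control. All SAM/P-8 CCH arrays lay above all SAM/R-1 CCH arrays, and the control groups overlapped. Scg2 was 1.33-fold higher in SAM/P-8 on the CCH diet (0.41 ± 0.09; limma adjusted p = 0.00974), and the difference was 0.14 ± 0.09 on the control diet. The call held under all 25 alternatives, with differences from 0.33 (leaving out SAM/P-8 CCH replicate 4) to 0.48.

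Chga, chromogranin A, stood at 4.32, 4.10, 4.28 and 3.93 in SAM/P-8 CCH, 4.44, 4.67, 4.37 and 4.45 in SAM/R-1 CCH, then 4.18, 4.08, 4.08 and 4.20 in SAM/P-8 control, and 4.33, 4.47, 4.40 and 4.41 in SAM/R-1 control. On both diets the SAM/P-8 arrays lay below the SAM/R-1 arrays without overlap. Chga was 1.25-fold lower in SAM/P-8 on the CCH diet (-0.33 ± 0.08; limma adjusted p = 0.0193) and 1.20-fold lower on the control diet (-0.26 ± 0.08; limma adjusted p = 0.0504), which missed the threshold. The first call was lost without SAM/P-8 CCH replicate 2 (-0.31; limma adjusted p = 0.0512) or SAM/R-1 CCH replicate 2 (-0.26; limma adjusted p = 0.0589), and with 2 of 9 other settings, normexp (-0.23; limma adjusted p = 0.208) and a fit of only the groups compared (-0.33; limma adjusted p = 0.0899). Over all 25 alternatives its adjusted p ran from 0.0113 to 0.208. Both strain differences passed without SAM/P-8 CCH replicate 4, at -0.25 ± 0.08 (limma adjusted p = 0.0487) and -0.26 ± 0.07 (limma adjusted p = 0.0199). That on the control diet also passed without SAM/P-8 CCH replicate 1 or SAM/R-1 CCH replicate 2. Chgb, chromogranin B, ranged from 7.10 to 7.73 over the 16 arrays and was called in no contrast by limma.

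Genes that make, break down and sense the peptides gave the wider pathway. Of 14 processing genes tested, limma called 0 for the strain difference on the control diet and 2 on the CCH diet, both lower in SAM/P-8: the convertase Furin (-0.25 ± 0.07; limma adjusted p = 0.0347) and Pcsk1n, which encodes an inhibitor of the convertase PCSK1 (-0.25 ± 0.08; limma adjusted p = 0.0420). Over all genes 12.9% were called there, 6.79% lower, so 2 of 14 is near the background. Without SAM/P-8 CCH replicate 4 neither was called, at -0.22 ± 0.08 (limma adjusted p = 0.0894) and -0.23 ± 0.08 (limma adjusted p = 0.0961). Leaving out 1 array ended the call of Furin for 5 of 16 arrays (SAM/P-8 CCH replicates 2 and 4, SAM/R-1 CCH replicates 1, 2 and 4; adjusted p up to 0.0923 by limma) and that of Pcsk1n for 9 of 16 (all of SAM/P-8 CCH, SAM/R-1 CCH replicates 2, 3 and 4, SAM/P-8 control replicate 3 and SAM/R-1 control replicate 1; up to 0.111).

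The averaged CCH effect called 1 of the 14, where 1.58% of all genes were called higher: Pcsk1 itself rose by 0.38 ± 0.08 (limma adjusted p = 0.0245), with effects of 0.36 ± 0.11 in SAM/P-8 and 0.40 ± 0.11 in SAM/R-1. The rise was 0.41 ± 0.08 without SAM/P-8 CCH replicate 4, and the call was lost without SAM/P-8 control replicate 2 (0.38; limma adjusted p = 0.0504) or SAM/R-1 control replicate 3 (0.36; limma adjusted p = 0.0511). Of 9 peptidases tested 2 were called, both higher in SAM/P-8 on the control diet and both kept when any 1 array was left out, against 6.15% of all genes called higher there. They were the aminopeptidase Npepps (0.23 ± 0.04; limma adjusted p = 0.00204) and Dpp4 (1.25 ± 0.31; limma adjusted p = 0.0140), which was well above background on 1 of 4 SAM/R-1 control arrays, so the size of its difference rests on signals near background there.

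Of 47 peptide receptors 44 had a probe and 29 were tested. On the control diet 7 of 29 were called, all lower in SAM/P-8, with a median difference of -0.15 over the 29, while 6.73% of all genes were called lower there. On the CCH diet 4 of 29 were called, again all lower, with a median of -0.17, against 6.79%. Without SAM/P-8 CCH replicate 4 the counts were 7 lower and 1 higher, then 3 lower and 1 higher.

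The neurotensin receptor Ntsr2 was lower in SAM/P-8, with differences of -0.70 ± 0.06 on the control diet (limma adjusted p = 4.98e-07) and -0.73 ± 0.06 on the CCH diet. For the nociceptin receptor Oprl1 the differences were -0.62 ± 0.09 (limma adjusted p = 2.46e-04) and -0.75 ± 0.09, and for the natriuretic peptide receptor Npr2 they were -0.31 ± 0.06 and -0.39 ± 0.06. All 3 receptors kept both calls when any 1 array was left out. Nts, Pnoc and Nppc, the precursors of peptides that these receptors are known to bind, were called in no contrast by limma.

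The thyrotropin-releasing hormone receptor Trhr was -0.80 ± 0.25 (limma adjusted p = 0.0439) and -0.93 ± 0.25 (limma adjusted p = 0.0226), and its calls were less steady. On the CCH diet the call was lost without SAM/P-8 CCH replicate 3 or 4 or SAM/R-1 CCH replicate 2 or 3 (differences from -0.90 to -0.77, limma adjusted p up to 0.0743). On the control diet it was lost for 9 of 16 arrays, and over all 16 such fits the difference ran from -0.96 to -0.61 (limma adjusted p up to 0.136). Those arrays were SAM/P-8 control replicates 1 and 3, SAM/R-1 control replicates 1, 2 and 3, SAM/P-8 CCH replicates 2 and 3 and SAM/R-1 CCH replicates 1 and 2.

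The VIP and PACAP receptor Vipr1 was lower in SAM/P-8 on the control diet (-0.70 ± 0.12; limma adjusted p = 0.00133), where 3 of 4 SAM/P-8 control arrays were well above background, and kept that call when any 1 array was left out. It was also the only receptor of 29 called for CCH in SAM/P-8, where 0.825% of all genes were called. Vipr1 was higher there by 0.59 ± 0.12 (limma adjusted p = 0.0437), and this value and the strain difference share their SAM/P-8 control arrays. The CCH call was lost for 12 of 16 arrays left out, all but SAM/P-8 CCH replicate 4, SAM/P-8 control replicate 1, SAM/R-1 CCH replicate 2 and SAM/R-1 control replicate 2, with effects from 0.51 to 0.68 and limma adjusted p up to 0.128.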

How the data were processed

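Hippocampal RNA of 16 samples was measured on one-colour (Cy3) Agilent arrays. The deposited array files give a processed intensity per spot, made with Agilent Feature Extraction 9.5.3.1 per the file headers, which subtracts background, with the median signal of spot and local background, also as intensity, and flags for spots well above background. The deposited series matrix is on a log2 scale with each probe centred on a median of 0: once the scanner values were centred likewise, the correlation per array was at least 0.9998, so its scale, centring and direction are known, with column medians from -0.038 to 0.037. The array design names build mm9 per the file headers, and gene names were taken from a RefSeq table of GRCm38.p6 by transcript accession (24844 of 41174 probes named).

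Spots marked non-uniform (187) or as population outliers (1445) were left out. Log2 signals were set against the 75th percentile of each array. The 29003 probes that at least 1 group showed well above background on its 4 arrays were kept, and a gene was read from its probe with the highest mean. limma 3.58.1 in R 4.3.3 fitted group means over all 16 arrays (12 residual degrees of freedom) and 6 contrasts, and was tested on simulated data. Replicates of a group correlated at 0.987 to 0.997. Genes given in full are those called in any contrast or with an array 1 or more from the mean of the other 3 of its group, and in other lists up to 4 called genes; Npy, Cort and Sst were added after their values were seen. The genes and lists were chosen with earlier results of these data known. Where a group had no array well above background, the fold is a bound, taken from the dimmest signal of each array that was still well above background. Alternatives were quantile normalization, median centring, normexp background correction with an offset of 50, other filters, the mean of probes, the series matrix, fewer groups, a replicate block and leaving out each array.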

Additional observations from a re-analysis of the deposited data

Results flagged for a closer look

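In each group of 4 arrays the highest and the lowest were compared with the rest (gap to the nearest array over the range of the group, by Dixon's test). Of 108 groups of member values 10 were marked this way, and of 48 groups of list scores 2, where chance marks about 1 in 20. Values are the log2 distance from the mean of the other 3 arrays.

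Of these, 3 fell on SAM/P-8 CCH replicate 4 for single genes: Pmch at 5.20, Penk at 4.41 and Tac1 at 4.20. The striatal marker score of that array was marked as well, at 3.44. Trh was marked on replicate 3 of SAM/R-1 control at 4.24 and on replicate 3 of SAM/R-1 CCH at 3.04. On the first of these Tac1 was marked at 0.94, and on the second Avp at 1.79 and Npb at 0.43. The low Vip level of SAM/P-8 control replicate 3 was at -0.46 and the high Cartpt level of SAM/P-8 CCH replicate 1 at 0.77. The choroid plexus score of SAM/P-8 CCH replicate 3 was at -3.73. What sets these arrays apart was not tested.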

How the results depend on the processing

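No called value turned its sign under any alternative. Pomc on both diets and Scg2 on the CCH diet kept their calls under all 25 alternatives, and the strain difference of Npb under 24 of 25, all but normexp. The member counts for the strain differences were 3 and 3 with all arrays. With normexp background correction 1 member was called for the strain difference on the control diet, 0 for CCH in SAM/P-8 and 0 for the averaged CCH effect. With only the groups compared in the fit 0 members were called for CCH in SAM/P-8. With median centring 1 member was called for the averaged effect. With the replicate number as a block 0 members were called for CCH in SAM/P-8 and 0 for the averaged effect. Shares over all genes under these settings are not given here. Same-numbered arrays correlated in their deviations from the group means between -0.249 and 0.302 (median 0.005, over 0.1 in 6 of 24 pairs), and 3 of 16 arrays correlated best with their own number, so the number is not taken as a pairing. Leaving out 1 array gave 2 to 6 calls for the strain difference on the control diet, against 9.52% to 14.8% of all genes. On the CCH diet it gave 2 to 4, against 9.16% to 13.6%. For CCH in SAM/P-8 it gave 0 to 1, against 0.111% to 1.5%, and for the averaged effect 0 to 3, against 0.921% to 7.95%. The cause of these changes was not tested. The calls of Npb and Lhb at low signal and of Nmb and Chga at higher signal all ended with normexp background correction.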
